A study of Mus musculus with 12 samples.

Results

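The 9 genes *Adipoq*, *Retn*, *Plin1*, *Cfd*, *Fabp4*, *Cidec*, *Lep*, *Ucp1* and *Pck1*, all expressed by fat cells, were followed through whole-adrenal RNA sequencing to see how much adipose RNA each gland carried and whether it was of the white or the brown kind. They were chosen by symbol, and they are 9 of the 39017 genes in the count table. The glands came from 6 control (Ctrl) and 6 βCat-GOF mice, 1 library per mouse. All were females of 10 to 11 weeks on a mixed sv129-C57Bl/6 background. Controls carried the Cre allele alone (ASCre/+), and βCat-GOF mice carried the same Cre allele together with 1 floxed allele of β-catenin (Ctnnb1fl(ex3)/+). Cre expression in both groups came from the *Cyp11b2* (AS) locus of zona glomerulosa cells, so that an exon of *Ctnnb1* is removed in the cells of this lineage only in βCat-GOF mice. The glands had been trimmed of adherent fat before RNA was extracted. The RNA was that of the whole gland, and fewer fat cells cannot be told apart from less RNA per fat cell.

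White adipocytes store triglyceride in 1 large droplet and secrete hormones, whereas brown adipocytes hold many small droplets and burn fuel for heat through UCP1, a proton channel of the inner mitochondrial membrane. The adrenal gland lies in perirenal fat, a depot in which brown and white adipocytes are both found. *Adipoq* (adiponectin), *Lep* (leptin), *Retn* (resistin) and *Cfd* (adipsin) encode secreted proteins. *Plin1* (perilipin 1) and *Cidec* encode droplet coat proteins, *Fabp4* a fatty acid carrier and *Pck1* the enzyme of glyceroneogenesis. Several of the genes are not restricted to fat. *Fabp4* is also made by endothelial cells and macrophages, *Pck1* by kidney and liver, and *Plin1* by steroidogenic cells, which store cholesteryl esters in droplets.

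On GRCm38 (mm10) with GENCODE M21, *Adipoq* lies on chromosome 16 (23146536 to 23158028), *Retn* on chromosome 8 (3655770 to 3660110), *Lep* on chromosome 6 (29060220 to 29073877) and *Ucp1* on chromosome 8 (83290352 to 83298452), and counts were taken over their exons. None of the 9 genes shared exonic bases with another annotated gene (0.0%), and none had a copy at 95% identity or more. The 250 bases upstream of the start site of 4 of them are given because these are the genes on which the amount of fat and its kind were read. Sequences are from RefSeq (GRCm38.p6, + strand), which held 8 of the 9 genes, *Fabp4* being the one without an entry. Capitals mark the motifs that were found, TTGCNNAA (the C/EBP core) and AGGTCA (the nuclear receptor half-site), both searched on both strands. The windows are chr16:23146286-23146535 for *Adipoq*, chr8:3655520-3655769 for *Retn*, chr6:29059971-29060220 for *Lep* and chr8:83290098-83290347 for *Ucp1*.
Adipoq: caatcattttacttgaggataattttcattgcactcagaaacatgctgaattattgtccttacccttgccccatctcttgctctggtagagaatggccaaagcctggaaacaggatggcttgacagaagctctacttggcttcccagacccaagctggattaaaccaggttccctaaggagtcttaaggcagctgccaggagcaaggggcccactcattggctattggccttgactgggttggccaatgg
Retn: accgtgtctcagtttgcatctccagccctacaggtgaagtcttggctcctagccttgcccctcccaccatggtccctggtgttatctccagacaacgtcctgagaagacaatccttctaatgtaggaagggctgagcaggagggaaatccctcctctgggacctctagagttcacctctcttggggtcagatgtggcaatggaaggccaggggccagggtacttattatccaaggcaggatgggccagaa
Lep: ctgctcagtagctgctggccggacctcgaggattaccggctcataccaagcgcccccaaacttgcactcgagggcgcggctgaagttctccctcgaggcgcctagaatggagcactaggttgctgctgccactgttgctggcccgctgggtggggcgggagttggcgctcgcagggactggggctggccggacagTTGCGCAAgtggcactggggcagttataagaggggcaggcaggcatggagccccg
Ucp1: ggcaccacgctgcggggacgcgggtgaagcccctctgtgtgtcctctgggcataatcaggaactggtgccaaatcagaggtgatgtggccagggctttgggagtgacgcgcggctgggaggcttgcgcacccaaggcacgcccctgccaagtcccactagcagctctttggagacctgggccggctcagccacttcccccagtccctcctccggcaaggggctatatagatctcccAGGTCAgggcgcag
The C/EBP core in *Lep* began 55 bases before the start site, and the half-site in *Ucp1* 14 bases before it. *Cidec* held 1 C/EBP core (TTGCTCAA, 198 bases before the start of 1 of its 2 windows) and *Plin1* held 2 (TTGCCTAA and TTGCCCAA, 187 and 58 bases before the start). *Adipoq*, *Retn*, *Cfd* and *Pck1* held neither motif in this window. TTGCNNAA was present in 9.56% and AGGTCA in 14.0% of the 32851 windows of this length. TATAAA, in 12.4% of windows, was found in none of the 8 genes, and neither was the direct repeat of the half-site with 1 base between (0.0335% of windows), which contains the half-site. A match is only a stretch of letters and was not tested for binding.

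Between 13484675 and 25625494 reads were counted on genes per mouse, and the difference in total between genotypes was within the spread of single mice (p = 0.777, two-sided exact permutation test). A count of 3 corresponded to 0.117 to 0.222 CPM (the share of a library, scaled to a common total). The adrenal identity of the samples was clear from the cortical markers *Star* and *Cyp11b1*, with at least 202944 and 172783 counts in every mouse. Of the lists for neighbouring tissues, kidney stayed at or below 2.25 CPM, skeletal muscle at or below 2.28 CPM and exocrine pancreas at or below 0.0791 CPM in every mouse, summed over each list. The liver list reached 87.0 CPM in βCat-GOF 4 and at most 12.1 CPM in the other 11 mice. In βCat-GOF 4 *Alb* had 760 counts and *Apoa1* 88 counts, against at most 3 and 9 counts in any other mouse. The leading number of the labels differs between the groups, being one number in the controls and another in all βCat-GOF mice but βCat-GOF 5, which has its own. Anything shared by mice with the same number cannot be told apart from genotype. The labels of 3 pairs (Ctrl 1 and 2, Ctrl 3 and 4, βCat-GOF 1 and 2) share a stem, which the labels do not explain. The study used littermates where it could, so some of the mice may be related.

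The 9 genes together took a small part of every library. They made up 0.0174% to 0.0981% of the counts in controls, with a median of 0.0363%, and 0.0238% to 0.0782% in βCat-GOF adrenals, with a median of 0.0509%. The highest share was that of Ctrl 4 and the lowest that of Ctrl 1. *Cfd* and *Fabp4* supplied most of these counts, 22.2% to 46.5% and 27.4% to 50.0% of the sum, while *Adipoq* supplied 0.864% to 10.1%.

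Per kilobase of messenger RNA, the order of the median levels over the 12 mice was *Cfd* (3292 normalized counts per kb), *Fabp4* (2965), *Cidec* (334), *Adipoq* (311), *Plin1* (305), *Retn* (200), *Pck1* (75.9), *Lep* (4.18) and *Ucp1* (2.12). Neighbours in this order differed by more than 1 SD of their log2 difference across mice in only 3 places, between *Fabp4* and *Cidec*, between *Retn* and *Pck1*, and between *Pck1* and *Lep*, and in each of these the first gene was the higher in 12 of 12 mice. *Cfd* and *Fabp4* stood level, with *Cfd* higher in 6 of 12 mice. The order depends on the transcript length used. That of *Cidec* was 785 bases, 747 of them coding, where its merged exons hold 1856 bases.

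*Adipoq*, the hormone regarded as the most specific to adipocytes, differed widely between glands of the same genotype. The counts, normalized by the size factor of each library, were 168, 534, 862, 1935, 379 and 82.4 in Ctrl 1 to 6. In βCat-GOF 1 to 6 they were 393, 409, 122, 566, 284 and 472. The highest mouse, Ctrl 4, had 23.5 times as many as the lowest, Ctrl 6, and without Ctrl 4 the fold was 10.5. Among βCat-GOF mice the highest had 4.65 times the count of the lowest. The ranges of the 2 groups overlapped.

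*Cidec*, which coats and fuses lipid droplets, varied with *Adipoq*, though not at 1 constant ratio in the βCat-GOF mice. Its normalized counts were 99.3, 322, 395, 1159, 238 and 44.7 in Ctrl 1 to 6 and 286, 217, 135, 618, 150 and 548 in βCat-GOF 1 to 6. The order of the 6 controls was the same as for *Adipoq*. *Pck1*, which makes the glycerol backbone for triglyceride in fat cells, had 54.3, 252, 406, 768, 163 and 26.5 in Ctrl 1 to 6 and 142, 135, 123, 563, 242 and 425 in βCat-GOF 1 to 6, again with the same order of controls. Over the 12 mice, Pearson's r of log2 CPM with *Adipoq* was 0.93 for *Cidec* (Spearman's rho 0.94, both permutation p = 4e-05) and 0.88 for *Pck1* (permutation p = 0.00019, rho 0.89, permutation p = 0.00028). Adjusted over the 13 relations computed, the p of r was 0.00052 and 0.00123. Without the 2 mice farthest from the median of *Adipoq*, Ctrl 6 and Ctrl 4, r was 0.83 (permutation p = 0.00245) and 0.75 (permutation p = 0.0117). Within controls r was 0.995 for both (exact permutation p = 0.00139 each, the smallest that 6 mice allow), and within βCat-GOF mice 0.82 (exact permutation p = 0.0167) and 0.63 (exact permutation p = 0.149).

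The ratio of *Pck1* to *Adipoq* was not the same in all βCat-GOF mice. It lay between 0.322 and 0.471 in the 6 controls, at 0.361 and 0.329 in βCat-GOF 1 and 2, and at 1.01, 0.994, 0.851 and 0.900 in βCat-GOF 3 to 6. The ratio of *Cidec* to *Adipoq* lay between 0.459 and 0.628 in controls. It was 0.727, 0.531 and 0.528 in βCat-GOF 1, 2 and 5, and 1.11, 1.09 and 1.16 in βCat-GOF 3, 4 and 6. The kidney list had no detectable relation to *Pck1* (r = -0.002 over 12 mice, permutation p = 0.994, rho 0.14, permutation p = 0.667), with r = 0.63 within controls (exact permutation p = 0.174) and -0.26 within βCat-GOF mice (exact permutation p = 0.596). Its proximal tubule markers were scarce, with *Kap* at no more than 2 counts, *Slc34a1* at no more than 4 and *Lrp2* at no more than 23 counts in any mouse. The liver genes differed among themselves. *Alb*, *Apoa1*, *Ttr* and *Fgb* were high in βCat-GOF 4 and had at most 3, 9, 5 and 0 counts in the other mice. *Serpina1a* had 23.3, 31.6, 11.8 and 8.04 normalized counts in βCat-GOF 3 to 6, the mice with the high *Pck1* ratio, 9.78 in Ctrl 6 and at most 4.20 in the other 7 mice. *Ahsg* had 277 in βCat-GOF 4, 241 in Ctrl 3 and 28.6 to 153 elsewhere. Their part in the *Pck1* counts was not tested.

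**Figure D1:**
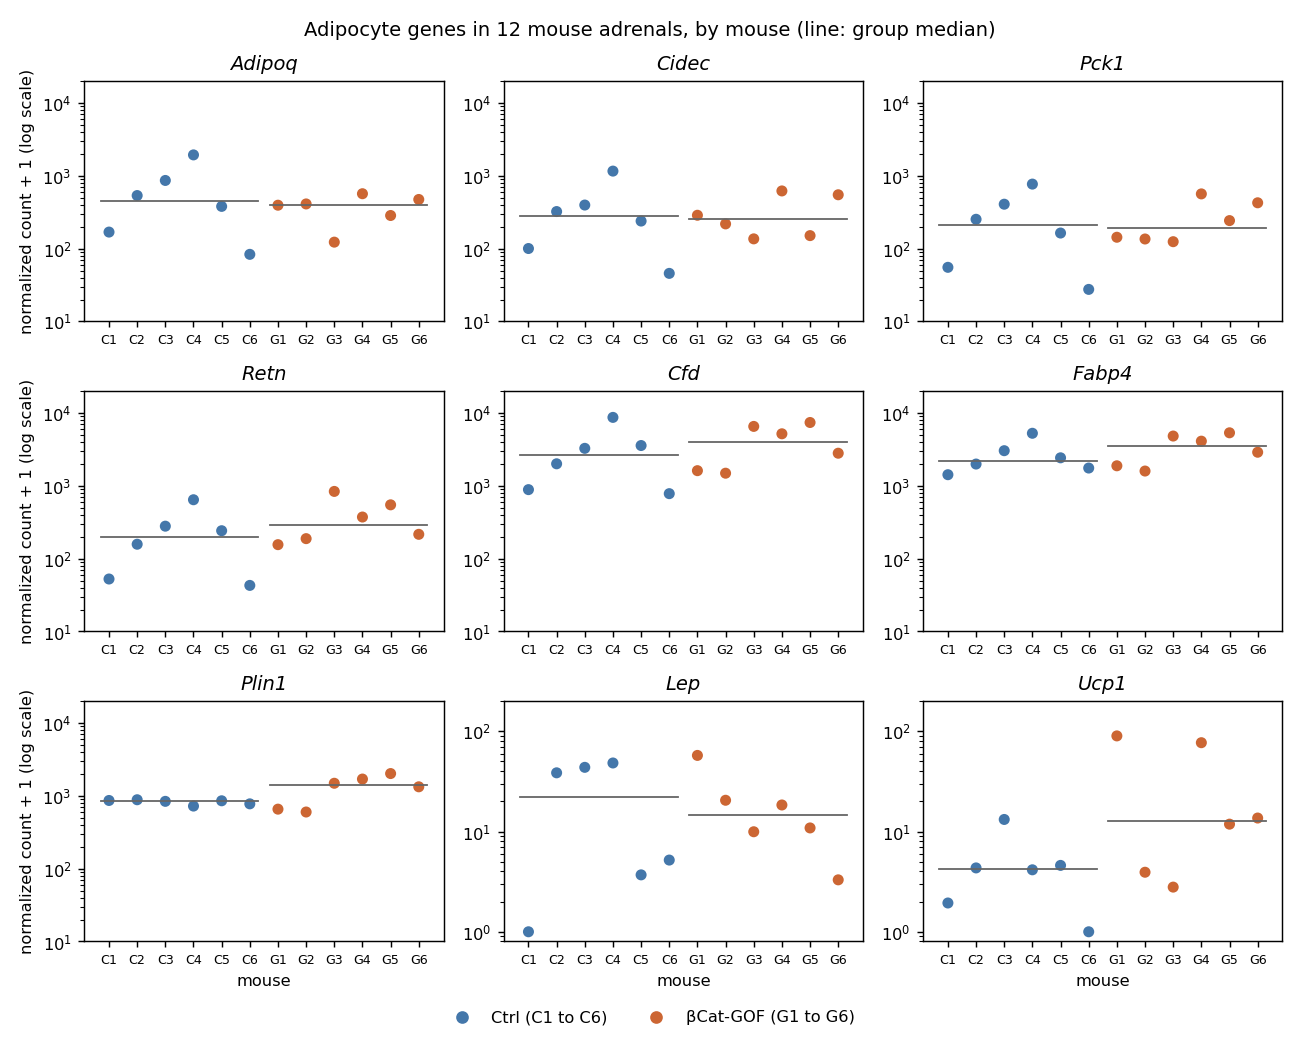
Normalized counts plus 1 on a log axis of the 9 adipocyte genes in each mouse (C1 to C6, Ctrl, and G1 to G6, βCat-GOF), with a grey line at the median of each group. *Adipoq*, *Cidec* and *Pck1* are highest in C4 and lowest in C6, *Plin1* is level among the controls, and *Ucp1* stands out in G1 and G4.

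*Retn*, *Cfd* and *Fabp4* followed *Adipoq* among the controls but not among the βCat-GOF mice. *Retn*, an insulin-antagonizing hormone of mouse white fat, had 51.5, 157, 278, 643, 241 and 41.9 normalized counts in Ctrl 1 to 6 and 155, 187, 837, 372, 547 and 215 in βCat-GOF 1 to 6. *Cfd*, a protease of the alternative complement pathway, had 885, 2005, 3269, 8698, 3573 and 779 in controls and 1613, 1489, 6541, 5178, 7402 and 2801 in βCat-GOF mice. *Fabp4* had 1420, 1989, 3035, 5263, 2423 and 1753 in controls and 1882, 1594, 4823, 4101, 5344 and 2890 in βCat-GOF mice. All 3 genes were at or near their highest in βCat-GOF 3 and 5, the same 2 mice that had the lowest *Adipoq* of their group.

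Within controls, r with *Adipoq* was 0.96 for *Retn* (exact permutation p = 0.00556), 0.94 for *Cfd* (exact permutation p = 0.0125) and 0.88 for *Fabp4* (exact permutation p = 0.0222), n = 6 each. Within βCat-GOF mice it was -0.74 (exact permutation p = 0.0611), -0.48 (exact permutation p = 0.344) and -0.46 (exact permutation p = 0.385), also with n = 6. Over the 12 mice none of the 3 relations passed. For *Retn* r was 0.46 (permutation p = 0.137, adjusted 0.297; rho 0.30, permutation p = 0.342), for *Cfd* 0.49 (permutation p = 0.11, adjusted 0.286; rho 0.37, permutation p = 0.236) and for *Fabp4* 0.35 (permutation p = 0.275, adjusted 0.398; rho 0.38, permutation p = 0.229). Without Ctrl 6 and Ctrl 4 these fell to -0.08, -0.03 and -0.09, so the pooled values rested on those mice. Without βCat-GOF 3, r rose to 0.79 for *Retn* (adjusted permutation p = 0.0191) and 0.72 for *Cfd* (adjusted permutation p = 0.0342), while without any other single mouse the adjusted p reached 0.651 and 0.634. The difference between the within-group values was not tested.

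The same contrast appeared in the count ratios. *Retn* to *Adipoq* was 0.293 to 0.635 in controls, 6.88 in βCat-GOF 3 and 1.93 in βCat-GOF 5. *Cfd* to *Adipoq* was 3.75 to 9.46 in controls, 53.8 in βCat-GOF 3 and 26.1 in βCat-GOF 5, and *Fabp4* to *Adipoq* was 39.6 and 18.8 in these mice against 2.72 to 21.3 in controls. In the other 4 βCat-GOF mice the *Retn* ratio was 0.393 to 0.656. Among themselves the 2 secreted proteins kept pace, since the ratio of *Cfd* to *Retn* lay between 7.82 and 18.6 over all 12 mice, a 2.38-fold range against 14.8-fold for *Cfd* to *Adipoq*.

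**Figure D2:**
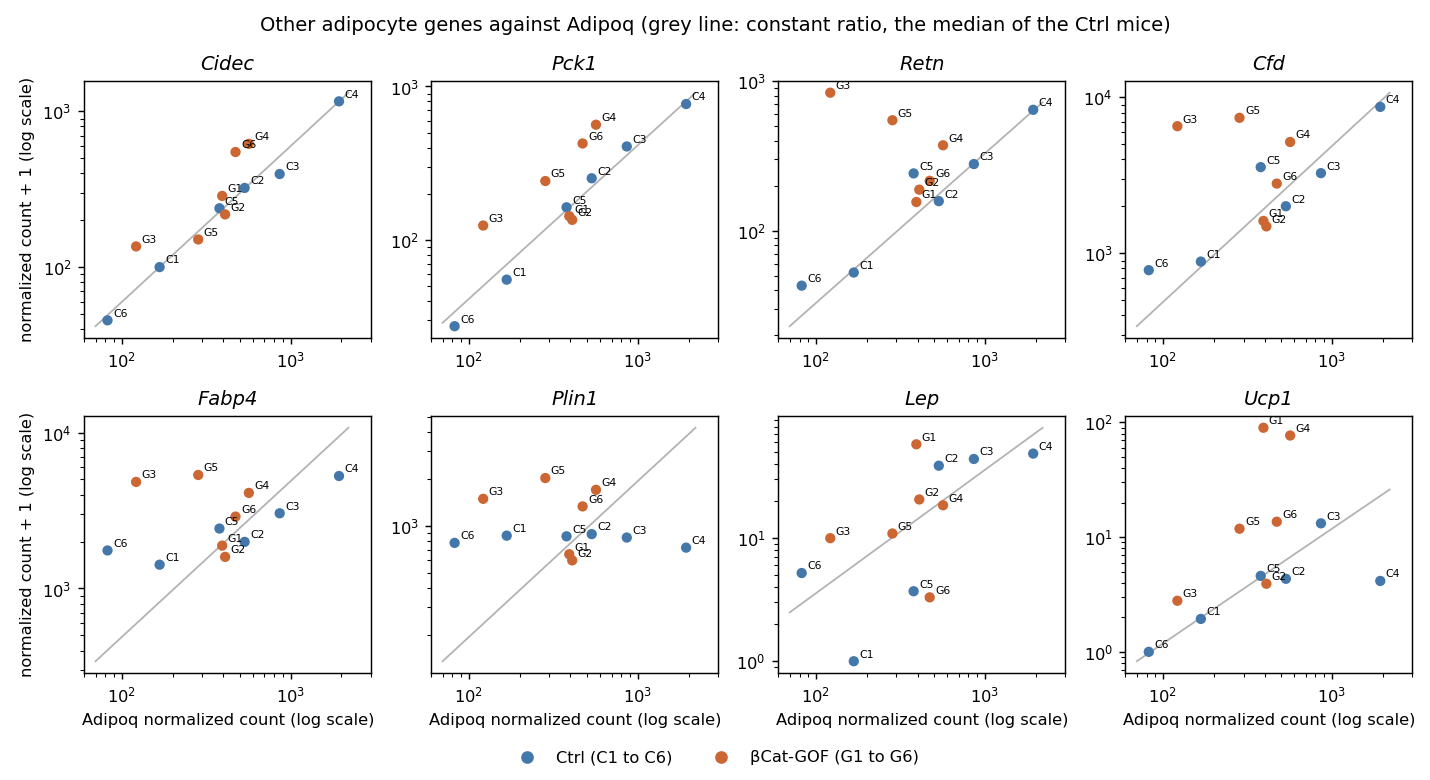
Normalized counts plus 1 of 8 adipocyte genes against the *Adipoq* count of the same mouse, both on log axes, with each point labelled by mouse and a grey line at the median Ctrl ratio. The controls lie near the line for *Cidec* and *Pck1*. G3, G4 and G6 lie above it for *Cidec*, and G3 to G6 for *Pck1*. G3 and G5 lie far above it for *Retn* and *Cfd*, and *Plin1* is level across the controls.

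**Figure D3:**
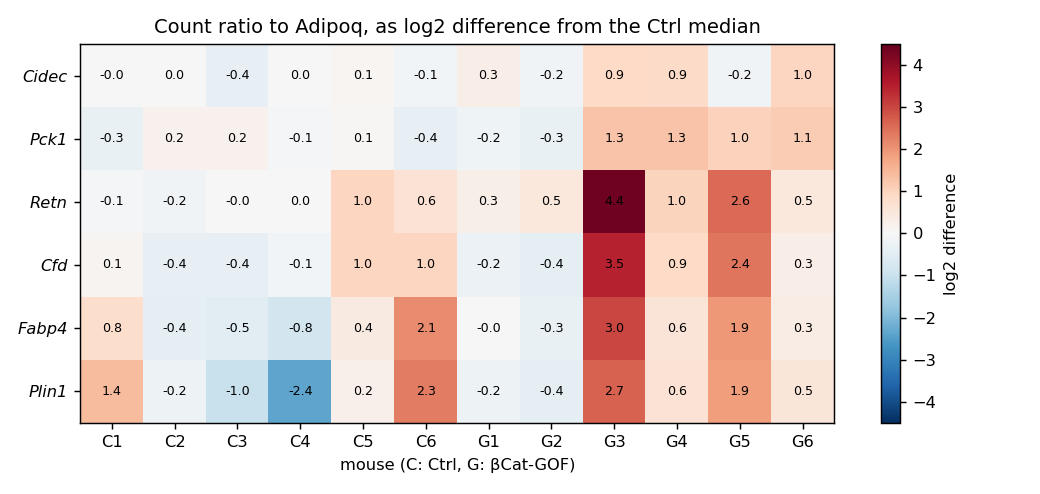
Ratio of 6 genes to *Adipoq* in each mouse, as the log2 difference from the median of the Ctrl mice, with the value printed in each cell. For *Retn* it is 4.39 in G3 and 2.56 in G5, and for *Pck1* between 1.04 and 1.30 in G3 to G6.

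*Fabp4* was set beside the cell types that also make it. The endothelial list summed to 897 to 1117 CPM in controls and 807 to 1106 CPM in βCat-GOF mice, and its r with *Fabp4* over the 12 mice was -0.21 (permutation p = 0.496; rho -0.19, permutation p = 0.556). The defining markers *Pecam1* and *Cdh5* had at least 1333 and 706 counts in every mouse. The macrophage list summed to 392 to 669 CPM in βCat-GOF mice and up to 932 CPM in controls. Of its 11 tested genes 2, *Adgre1* and *Ms4a7*, were called lower in βCat-GOF adrenals, against 0.869% of all genes. At the adjusted p alone 3 were lower, *Mrc1* being the third (adjusted p = 0.0495 in edgeR), against 1.52% of all genes. The log2 fold change was below 0 in 10 of the 11, with a median of -0.39 against 0.000105 over all genes tested. Over the 12 mice r of *Fabp4* with this list was 0.32 (permutation p = 0.306, adjusted 0.398; rho 0.40, permutation p = 0.199), and without Ctrl 1 it was 0.75 (adjusted permutation p = 0.0234, against up to 0.804 without another mouse). Within the 6 βCat-GOF mice it was 0.93 (exact permutation p = 0.00972; rho 0.77, exact permutation p = 0.103), and within the 6 controls 0.21 (exact permutation p = 0.704). With the endothelial list r was -0.86 within controls (exact permutation p = 0.0181) and 0.46 within βCat-GOF mice (exact permutation p = 0.342). The part of these cells in the *Fabp4* counts was not tested.

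*Plin1* departed from the other genes. Its normalized counts were 863, 883, 839, 723, 854 and 775 in Ctrl 1 to 6, a 1.22-fold range over glands in which *Adipoq* varied 23.5-fold, and the lowest was in Ctrl 4, where *Adipoq* was highest. In βCat-GOF 1 to 6 they were 655, 599, 1487, 1699, 2022 and 1330, so 2 mice lay below and 4 above every control. With *Adipoq*, r was -0.18 (permutation p = 0.585; rho -0.13, permutation p = 0.7). The label of an adipocyte gene was thus not borne out by *Plin1* in the control glands. With the summed cortical markers, r was 0.65 (permutation p = 0.0199, adjusted 0.0864; rho 0.62, permutation p = 0.0337), and without the 2 mice farthest from the median of the markers, βCat-GOF 1 and 4, it was 0.52 (permutation p = 0.121). Without βCat-GOF 5 it was 0.85 (adjusted permutation p = 0.00299, against up to 0.233 without another mouse). Within the 6 controls r was 0.001 (exact permutation p = 0.996), and within the 6 βCat-GOF mice it was 0.75 (exact permutation p = 0.113).

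*Lep* counts were low throughout. Normalized, they were 0, 37.5, 42.7, 47.3, 2.69 and 4.19 in Ctrl 1 to 6 and 56.4, 19.5, 8.95, 17.4, 9.86 and 2.30 in βCat-GOF 1 to 6. The highest control was at least 16.8-fold above Ctrl 1, where no read was counted against a floor of 3 counts. *Lep* tended to be higher where *Adipoq* was, without passing after adjustment (r = 0.63, permutation p = 0.0275, adjusted 0.0893; rho 0.60, permutation p = 0.0427).

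*Ucp1*, the defining gene of brown fat, was at the limit of detection in most glands. The raw counts were 1, 4, 16, 3, 4 and 0 in Ctrl 1 to 6 and 115, 3, 2, 48, 11 and 11 in βCat-GOF 1 to 6. βCat-GOF 1 and 4 therefore held more than all the others, with 88.9 and 75.9 normalized counts against at most 12.6 elsewhere. Relative to *Adipoq* of the same library, *Ucp1* was 22.6% in βCat-GOF 1 and 13.4% in βCat-GOF 4, and at most 3.82% in the other 10 mice. In Ctrl 4, the gland with the most *Adipoq*, it was 0.163%, or 3 counts to 1842. These ratios compare counts that are not divided by gene length. The counting error of values this low is large, and the count of 0 in Ctrl 6 still allows up to 3 counts, so that *Ucp1* was only not detectable there at this depth.

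The log2 ratio of *Ucp1* to *Adipoq* counts, with 0.5 counts added to each, was -7.11 ± 1.01 in controls and -4.59 ± 1.79 in βCat-GOF mice (SD, n = 6 each), a difference of 2.52 that passed an exact permutation test (two-sided, p = 0.013). The groups overlapped. Of the 2 mice with the most *Ucp1*, the liver list was raised in βCat-GOF 4 but not in βCat-GOF 1 (1.78 CPM), and the difference was 2.18 without βCat-GOF 4 and 2.03 without βCat-GOF 1 (exact permutation p = 0.0216 each). Against *Plin1* in place of *Adipoq* the difference was 1.73 (exact permutation p = 0.158), and for log2 *Ucp1* itself it was 2.08 (exact permutation p = 0.0779). *Ucp1* did not pass the filter on low counts and so was not among the genes tested by edgeR. Without the filter it changed by 2.91 on the log2 scale (SE 0.875, adjusted p = 0.107 in edgeR), and DESeq2 gave 3.01 (adjusted p = 0.0142) at a base mean of 18.0, below the limit of 100.

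Other genes of brown fat did not all follow *Ucp1*. *Otop1*, a proton channel found in brown fat, had 13.1 and 31.6 normalized counts in βCat-GOF 1 and 4 and at most 6.10 in the other mice. *Fabp3*, a fatty acid carrier of oxidative tissues, had 106 in βCat-GOF 4 and 10.0 to 34.3 in the other mice. *Dio2*, which activates thyroid hormone, had 0 to 33.1, with no excess in βCat-GOF 1 and 4. *Cidea*, a droplet protein of brown and beige adipocytes, went with *Retn* and *Cfd* instead, at 328 and 343 in βCat-GOF 3 and 5, 112 in Ctrl 5 and 8.43 to 66.5 in the other 9 mice. *Elovl3* did not exceed 11 counts in any mouse. *Slc27a2*, a fatty acid transporter, was highest in βCat-GOF 4 (33.2), where the liver list was also raised, and lowest in βCat-GOF 2 (1.95). The part of liver RNA in its counts was not tested. *Ppargc1a* was highest in βCat-GOF 1 and 4, at 78.1 and 60.1 against 26.5 to 52.8. It is among the genes picked for their correlation with *Ucp1*, so its likeness to *Ucp1* followed from how it was picked. *Kng2*, a kininogen, ranged from 23.2 in βCat-GOF 1 to 1281 in βCat-GOF 3 and held the highest single count of the list, so that it weighed heavily in the sum. The summed list had r = -0.32 with *Ucp1* (permutation p = 0.306; rho -0.38, permutation p = 0.228), and within βCat-GOF mice r = -0.82 (exact permutation p = 0.0472, n = 6).

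The genes of the list for white fat did not move as one. *Wfdc21* and *Agt* were highest in βCat-GOF 3 and 5. *Wfdc21* had 212 and 355 normalized counts there, 73.7 in Ctrl 5 and 1.87 to 10.5 in the other 9 mice. *Agt*, the angiotensin precursor, had 2911 and 1138 there and 43.3 to 397 elsewhere. *Slc7a10*, an amino acid transporter of white adipocytes, had 6.26 and 9.86 in these mice and reached 41.1 in βCat-GOF 4. *Npr3*, the natriuretic peptide clearance receptor, was lowest in βCat-GOF 3 (151, up to 636 elsewhere), and *Hoxc9* was lowest in βCat-GOF 5 (3.94, up to 18.2 elsewhere). Of the 3 adipocyte hormones *Adipoq*, *Retn* and *Lep*, the first 2 were counted in all 12 mice and *Lep* in 11. *Zic1* and *Lhx8*, transcription factors of classical brown fat, had no more than 4 counts in any mouse. *Prdm16* and *Ebf2*, further transcription factors of brown fat, were counted in every mouse. *Prdm16* had 33.3 to 139 normalized counts, with 139 in βCat-GOF 1 and 47.4 in βCat-GOF 4. *Ebf2* had 5.62 to 38.9, with 24.7 in βCat-GOF 1, 12.7 in βCat-GOF 4 and the highest value in Ctrl 4.

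**Figure D4:**
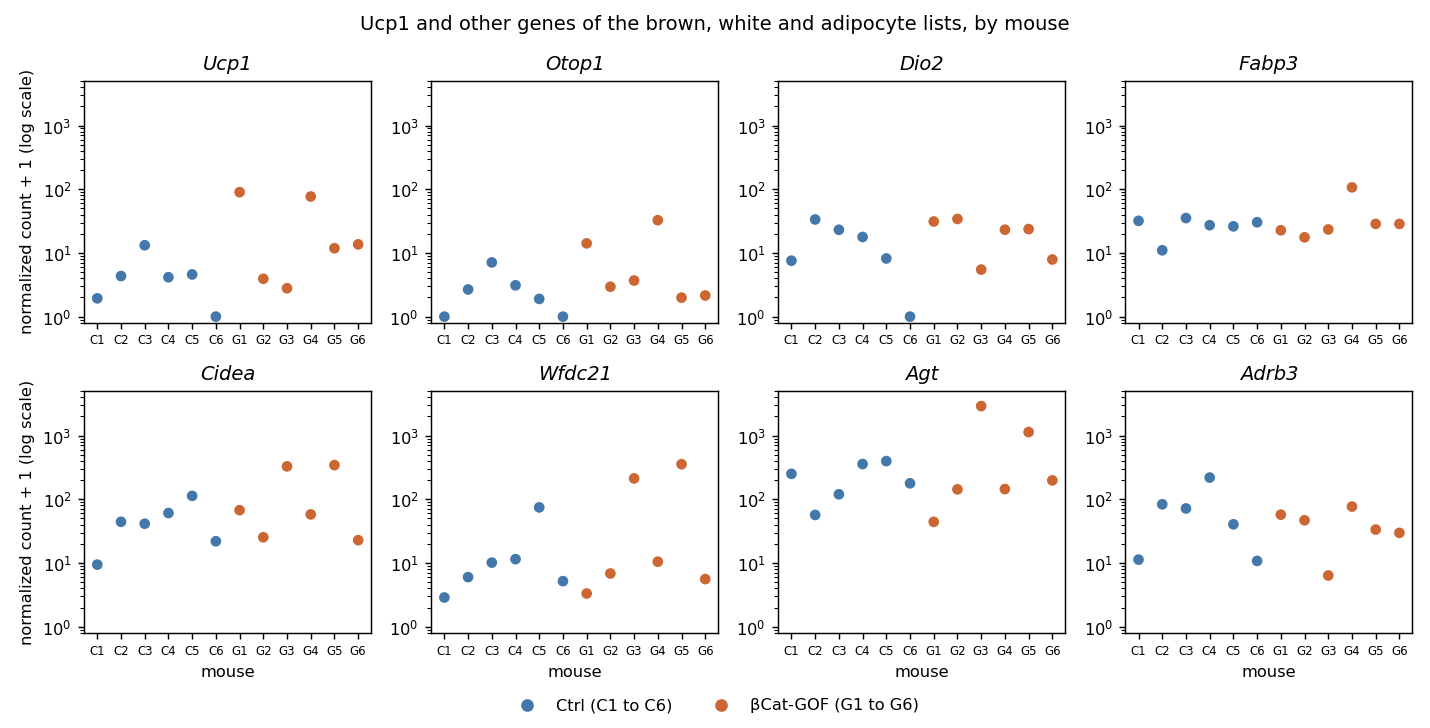
Normalized counts plus 1 on a log axis of *Ucp1* and 7 genes of the brown, white and adipocyte lists in each mouse. *Ucp1* and *Otop1* are highest in G1 and G4, whereas *Cidea*, *Wfdc21* and *Agt* are highest in G3 and G5, and *Adrb3* is highest in C4 and lowest in G3.

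No adipocyte gene passed the comparison of βCat-GOF with Ctrl adrenals. A call required a base mean above 100, a fold above 1.4 and an adjusted p below 0.05 in edgeR's quasi-likelihood test. It was met by 0 of the 8 genes tested, where 2.35% of all 14953 genes met it (1.48% higher and 0.869% lower in βCat-GOF). At the adjusted p alone 0 of the 8 passed, against 3.68% of all genes (2.16% higher and 1.52% lower). DESeq2 also called 0 of them, and 1 of the 8, *Plin1*, had an unadjusted p under 0.05. The log2 fold change of *Plin1* was 0.64 (standard error 0.247, unadjusted p = 0.0207, adjusted p = 0.166), from 823 ± 61.2 to 1299 ± 570 normalized counts (SD, n = 6 each). It passed in edgeR when βCat-GOF 1 was left out (log2 fold change 0.79, adjusted p = 0.0496, against up to 0.303 without other mice). *Adipoq* had 660 ± 684 in controls and 374 ± 155 in βCat-GOF mice, a log2 change of -0.83 (SE 0.589, adjusted p = 0.453). *Retn* had 235 ± 221 and 385 ± 265, a log2 change of 0.69 (SE 0.588, adjusted p = 0.545). For the remaining genes it was 0.36 for *Cfd*, 0.36 for *Fabp4*, -0.23 for *Cidec*, -0.21 for *Lep* and -0.06 for *Pck1*, with standard errors between 0.343 and 0.817. The median over the 8 genes was 0.15, against 0.000105 over all genes tested, and the groups overlapped for all 9 genes, where 2.78% of all genes tested did not (1.61% with βCat-GOF above and 1.16% with it below).

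**Figure D5:**
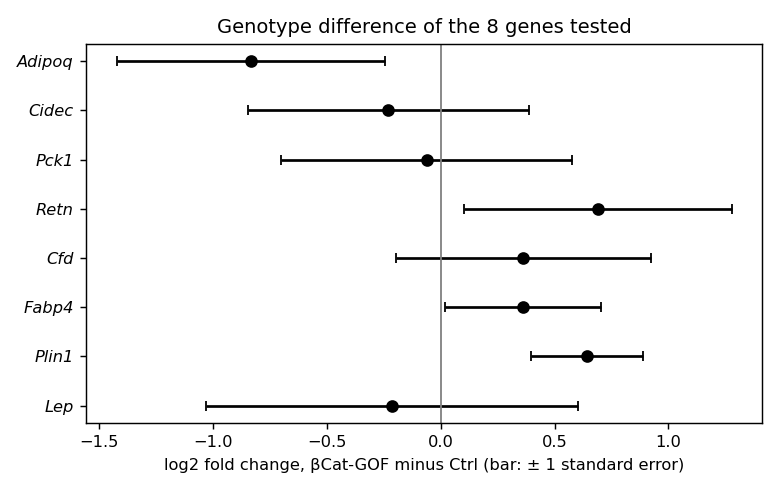
Log2 fold change, βCat-GOF minus Ctrl, of the 8 adipocyte genes tested, with bars of 1 standard error to each side. *Plin1* lies at 0.64 and *Adipoq* at -0.83, and no gene passed after adjustment.

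Of 19 tested genes in a list of 20 other adipocyte genes, 1 was called higher and 0 lower, against 1.48% and 0.869% of all genes. Of the 19, 16 had a log2 fold change above 0, with a median of 0.27 against 0.000105 over all genes tested. The 3 below 0 included *Adrb3* (-0.84) and *Lgals12* (-0.11), the tested genes outside the 9 that were most like *Adipoq* over the mice. *Adipoq* itself changed by -0.83 and *Car3* by 0.30, and none of these passed. DESeq2 called 3 (*Gpd1*, *Slc2a4* and *Scd1*), where it called 363 of 24859 genes higher and 283 lower. An unadjusted p under 0.05 was found for 3. No share over all genes was taken for the unadjusted p, here or for the other lists. The gene called in edgeR was *Gpd1*, the enzyme that makes glycerol 3-phosphate, at 1.20 (standard error 0.306, adjusted p = 0.0461), a gene with 7902 normalized counts on average. It lost its call in 9 of the 12 fits without a single mouse. Among controls *Gpd1* was lowest in Ctrl 4 (2272 normalized counts), where *Adipoq* was highest, and had 4487 in Ctrl 6, where *Adipoq* was lowest. *Adrb3*, the adrenergic receptor of fat cells, ranged from 5.37 in βCat-GOF 3 to 218 in Ctrl 4. *Lgals12*, a galectin of lipid droplets, ranged from 6.98 in Ctrl 6 to 92.4 in Ctrl 4. *Car3*, a carbonic anhydrase abundant in fat, ranged from 373 in Ctrl 6 to 7566 in Ctrl 4. The other 3 genes of widest range in this list were highest in βCat-GOF 3, where *Adipoq* was the lowest of its group. There *Aqp7*, a glycerol channel, had 29.5 normalized counts, *Dgat2*, which completes triglyceride synthesis, 11182, and *Plin4*, a droplet coat protein, 3094, and their lowest values were 0.937 in Ctrl 1, 637 in Ctrl 2 and 199 in βCat-GOF 1. Of the 12 tested brown genes 0 passed (0 at an unadjusted p under 0.05 and 0 by DESeq2), where 2.35% of all genes passed. Of the 6 tested white genes 1 passed (1 also by DESeq2), the imprinted gene *Mest*, at 1.78 (standard error 0.242, adjusted p = 0.00173 in edgeR). It had 544 to 1166 normalized counts in controls and 1763 to 4251 in βCat-GOF mice. The groups did not overlap, as for 1.61% of all genes with βCat-GOF above. Among controls *Mest* was lowest in Ctrl 4, where *Adipoq* was highest, and had 982 in Ctrl 6, where *Adipoq* was lowest. It thus did not follow *Adipoq* there. The 9 tested lipid droplet genes included 0 that passed (3 had an unadjusted p under 0.05, and DESeq2 called 0).

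Receptors and relatives of the 9 genes were examined in the same fit, where 1.48% of all genes tested were called higher and 0.869% lower in βCat-GOF. DESeq2 called 363 of 24859 genes higher and 283 lower. The leptin receptor *Lepr* was the 1 gene of 6 receptors that passed (1 also by DESeq2, 2 at an unadjusted p under 0.05), with 319 to 610 normalized counts in controls and 617 to 2363 in βCat-GOF mice, 1.62 higher on the log2 scale (standard error 0.283, adjusted p = 0.00646). The adiponectin receptors *Adipor1* and *Adipor2* changed by 0.15 and 0.43 without passing (adjusted p = 0.32 and 0.305). Of the 10 tested relatives 1 passed (1 also by DESeq2, 4 at an unadjusted p under 0.05), *Ucp2*, a mitochondrial carrier of the same family as *Ucp1* that is not a marker of brown fat, at 0.76 (standard error 0.114, adjusted p = 0.00317). Its counts were 3117 to 4679 in controls and 4983 to 7460 in βCat-GOF mice. *Lepr*, *Mest* and *Ucp2* kept an adjusted p under 0.05 without any single mouse (12 fits).

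Outside the 9 genes themselves, the tested genes most like *Adipoq* over the 12 mice, by Pearson's r of log2 CPM, were *Adrb3* (0.94), *Lgals12* (0.93), *Slc1a3* (0.93), *Nrg4* (0.91) and *Aoc3* (0.91). Those most like *Fabp4*, again leaving out the 9 genes, were *Adig* (0.94), *Ces1d* (0.93), *Cyp2e1* (0.92), *Lpl* (0.88) and *Slc36a2* (0.85). For *Pck1*, with the same omission, they were *Nrg4* (0.88), *Pon1* (0.84), *Car3* (0.83), *Entpd7* (0.83) and *Lgals12* (0.81). Genes shared by the first 10 of *Adipoq* and *Pck1* were *Lgals12*, *Nrg4* and *Aoc3*, whereas *Fabp4* shared none of its first 10 with either. For *Ucp1* the closest were *N4bp3* (0.94), *Unc119b* (0.91), *Tmem79* (0.87), *Ppargc1a* (0.87), a coactivator of mitochondrial genes, and *Map7* (0.85), but *Unc119b* itself ranged only from 1145 to 1422 normalized counts. These values were picked as the highest of all genes, and the points share libraries and depth.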

How the data were processed

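Whole-adrenal RNA of 6 Ctrl and 6 βCat-GOF female mice was sequenced, 1 library per mouse. According to the study's methods the authors used STAR for alignment to mm10 and featureCounts 1.4.4 to count reads with a unique alignment. The annotation release and the strand setting are not given in the sources used here. The authors deposited the raw counts of 39017 genes and a signal table of the same counts divided by 1 factor per library (0.9545 to 0.9758 times the factors used here), made with DESeq2 1.6.3. All columns were mapped to a mouse.

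Genes were tested on the deposited counts by the quasi-likelihood test of edgeR 4.0.16 (R 4.3.3, TMM, filterByExpr), and p-values were adjusted by Benjamini-Hochberg over 14953 genes. A call needed a base mean above 100, a fold above 1.4 and an adjusted p below 0.05. Normalized counts are counts divided by size factors of DESeq2 1.42.0, and log2 CPM used a prior count of 2. The standard error is the log2 fold change divided by the square root of F. Exact permutation tests used all 924 splits of 12 mice (smallest p 0.0022), correlations 100000 resamples over 12 mice or all 720 pairings of 6, with adjustment over 13 relations. Levels per kilobase used the transcript with the longest coding sequence. Positions came from GENCODE M21, in which 37607 identifiers were found, and copies were sought with blastn 2.17.0. On simulated counts of these mice 198 of 200 changed genes were recovered among 15026 tested.

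The 9 genes and all gene lists were chosen with earlier results of these data known. Named genes are the 9, at most 6 genes with the widest range between mice in the adipocyte, brown and white lists, defining markers of other tissues, and the genes most correlated with *Adipoq*, *Ucp1*, *Pck1* and *Fabp4*. *Zic1*, *Lhx8*, *Prdm16*, *Ebf2*, *Gpd1*, *Lepr*, *Ucp2*, *Adipor1*, *Adipor2*, *Ms4a7*, *Mrc1*, *Slc2a4*, *Scd1*, *Serpina1a*, *Ahsg*, *Ttr* and *Fgb* were named after their values were seen. Littermates may be among the mice, so p-values measure the spread between these 12 samples. Alternatives were DESeq2, its size factors in edgeR, no filter, at least 10 counts in every mouse, adjusted p alone, leaving out mice by label and leaving out each mouse.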

Additional observations from a re-analysis of the deposited data

Results flagged for a closer look

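Within a group of 6 mice, 1 mouse lay far from the others (gap over range above Dixon's 95% value of 0.625) in 5 of the 34 groups checked. Chance gives about 1 in 20 only for independent checks of normally distributed values. The checks share mice and use genes that vary together, so no excess over chance can be read from the 5. Ctrl 4 was high for *Cfd* (8698 normalized counts, lowest control 779) and for *Cidec* (1159, lowest control 44.7). Ctrl 4 was also the lowest control for the log2 ratio of *Ucp1* to *Adipoq*, at -9.04 against at most -6.10. βCat-GOF 1 was high for *Lep* at 56.4 normalized counts. Ctrl 3 was high for *Ucp1* at 12.2 normalized counts.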

How the results depend on the processing

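Of the 8 adipocyte genes tested, 0 were called under the alternatives that kept all mice or dropped mice by label, and between 0 and 1 when each mouse was left out, the 1 being *Plin1* without βCat-GOF 1. The log2 fold changes that turned sign were small and never passed. *Cidec* ran from -0.51 to 0.54, turning at 0.54 without Ctrl 4. *Lep* ran from -0.98 to 0.12, and *Pck1* from -0.40 to 0.56. The r of *Pck1* with the kidney list ran from -0.14 to 0.17. The 23.5-fold range of *Adipoq* fell to 10.5 at least in these fits, and the summed counts of the 9 genes differed 5.48-fold between normalized libraries. The *Ucp1* to *Adipoq* difference of 2.52 stayed between 2.03 and 2.99 without single mice and past the threshold each time, but not with *Plin1* as the denominator (1.73, exact permutation p = 0.158). Relations called numbered 2 and, without βCat-GOF 3, 4. The genes called in the adipocyte, brown and white lists numbered 2, between 1 and 2 without single mice, 4 with DESeq2 and 1 without the mouse with another label number. Of all genes, 222 were called higher (363 with DESeq2, 146 to 340 without single mice, the lowest without Ctrl 6 and the highest without βCat-GOF 1). There were 130 called lower, 283 with DESeq2, 228 without the 3 mice whose label repeats a stem, 228 at the adjusted p alone, 80 without the mouse with another label number, and 61 to 223 without single mice. The cause of these differences was not tested. No paired analysis was possible because the labels give no shared replicate numbers. *Ucp1* and *Lep* rest on few counts, and their levels in single mice are limited by depth.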
